A study of Mus musculus with 9 samples.

Results

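Caln1, Galnt17, Auts2, Opcml and Chn2 are 5 mouse genes at which a p53-null osteosarcoma cell line had few or no open chromatin peaks. They were 5 of 21887 protein-coding genes with a RefSeq span on the chromosomes measured. A locus was the gene span with 50 kb added on each side (GRCm38), and every peak of a library that overlapped it by 1 bp or more was counted. The genes were selected on measured values, the peak calls of the null line, because they lie at stretches without null peaks. All values of the null line at these loci are therefore a description, without a test. Because Caln1, Galnt17 and Auts2 are neighbours on chromosome 5, the 5 genes make up 3 places in the genome.

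The data were ATAC-seq peak lists of 3 cell lines, each derived from a primary bone tumour (osteosarcoma) of a mouse, with 3 libraries per line. The R172H line had genotype p53R172H/-, with 1 mutant copy of p53. The R245W line was p53R245W/- in the same way, and the null line was p53-/-, so no line carried a wild-type copy. All were cultured in the same serum-containing medium. Each genotype was 1 line, so genotype and line cannot be told apart, and no label gives the culture a library was made from. P-values over libraries therefore measure the spread between these libraries, which may be technical.

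ATAC-seq marks DNA that the Tn5 transposase can cut, chiefly promoters and enhancers, and each peak here was a place where the cut reads exceeded the local background at a q of 0.05. A missing peak can mean closed chromatin or missing DNA, and these cannot be told apart from peak lists. The 5 genes are long and are best known from the nervous system. Auts2 encodes a nuclear protein that joins a Polycomb complex and activates transcription, and its human counterpart is disrupted in neurodevelopmental disorders. Caln1 encodes calneuron 1, a calcium sensor with EF hands. Galnt17 belongs to the family of transferases that start mucin-type O-glycosylation. Opcml encodes an adhesion protein of the IgLON family that is anchored to the membrane by a lipid, and human OPCML has been described as silenced in ovarian tumours. Chn2 encodes beta-chimaerin, which switches off the GTPase Rac in response to diacylglycerol.

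Libraries held 72840 to 74352 peaks in the R172H line, 75314 to 79424 in the R245W line and 65199 to 65942 in the null line. Read depth was unknown. Its nearest substitute, the background pile-up implied by the deposited fold and p, was 4.77 to 5.36, 5.65 to 6.39 and 5.02 to 5.80 in the same lines. Libraries of a line shared 80.5% to 83.8% of the regions called in either of a pair. Of the 9 osteoblast and mesenchymal markers, among them Runx2, Sp7 and Col1a1, 9 had a peak within 1000 bp of a gene end in all libraries. Of 8 neuronal and glial markers 4 had such a peak in all R172H, 4 in all R245W and 4 in all null libraries. The endothelial markers Pecam1 and Cdh5 had none in any library.

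No promoter window was available for Auts2. Promoters of 3 of the other genes carried a peak in all 3 R172H and all 3 R245W libraries and in no null library. Their sequences are shown because they are the gene starts at which the mutant lines were open and the null line was not. They are from RefSeq (GRCm38.p6), 250 bases before to 50 after the start, 5′ to 3′ on the gene's strand, with matches to the searched motifs in capitals. Galnt17 lies on the minus strand at chr5:131307473-131307772, Opcml on the plus strand at chr9:27791049-27791348 and Chn2 on the plus strand at chr6:54039682-54039981.
Galnt17: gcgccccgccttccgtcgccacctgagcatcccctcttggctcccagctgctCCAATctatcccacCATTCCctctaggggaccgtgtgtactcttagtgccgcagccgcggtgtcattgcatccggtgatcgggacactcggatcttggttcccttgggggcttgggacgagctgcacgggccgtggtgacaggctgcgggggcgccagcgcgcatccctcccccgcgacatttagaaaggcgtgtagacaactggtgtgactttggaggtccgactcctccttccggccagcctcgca
Opcml: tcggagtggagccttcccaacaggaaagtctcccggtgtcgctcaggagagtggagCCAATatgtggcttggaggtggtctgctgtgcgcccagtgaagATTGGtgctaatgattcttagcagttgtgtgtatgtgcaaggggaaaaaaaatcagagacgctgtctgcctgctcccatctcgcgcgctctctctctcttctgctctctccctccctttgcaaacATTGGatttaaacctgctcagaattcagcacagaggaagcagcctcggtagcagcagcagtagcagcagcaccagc
Chn2: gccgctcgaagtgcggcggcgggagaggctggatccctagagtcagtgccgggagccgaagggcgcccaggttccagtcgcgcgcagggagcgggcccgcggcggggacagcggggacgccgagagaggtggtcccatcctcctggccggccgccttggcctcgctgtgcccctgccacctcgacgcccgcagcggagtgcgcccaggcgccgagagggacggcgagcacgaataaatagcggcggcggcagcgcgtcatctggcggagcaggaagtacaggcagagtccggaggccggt

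These 3 windows differed in base composition. GC content was 73.3% with 39 CpG at Chn2, 64.3% with 24 CpG at Galnt17 and 53.7% with 9 CpG at Opcml. The 12652 promoter windows with a peak in all 9 libraries had a median of 62.3% GC and 22 CpG, and the 16413 with no peak in any library had 47.0% and 3. The motifs searched, on both strands, were TGANTCA (AP-1), TGTGGT (RUNX), GGAATG (TEAD), GGGCGG (GC box), CCAAT and TATAAA, and no matches overlapped in these windows. Opcml held 3 matches to CCAAT, counting both strands, and Galnt17 held 1. CCAAT was present in 37.4% of all 32851 promoter windows. Galnt17 also held 1 match to GGAATG, which was in 14.7% of windows. The Chn2 window held none of the 6 motifs. A peak in all 6 mutant libraries and in no null library was present at 411 of all promoter windows, or 1.25%. It was present at 3 of the 7 windows listed for Caln1, Galnt17, Opcml and Chn2. Null calls chose the genes, so nothing is read from that share. The single Caln1 window and the other 3 Chn2 windows had no peak in any library. Auts2 had no promoter window in the source used, so its promoter was not examined.

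Galnt17 was the gene with no null peak at all. Its locus, on chromosome 5 with the gene at 130874343 to 131307522, had 23, 23 and 27 peaks in the R172H libraries, 22, 22 and 20 in the R245W libraries and 0, 0 and 0 in the null libraries. The mutant libraries were all high and the null libraries all empty. Its peaks covered 17.5 ± 0.297 kb in the R172H line and 14.7 ± 0.219 kb in the R245W line (SD, n = 3). The peak at its start, at 131306241 to 131308333, spans the promoter printed above. It ranked at the 83.9 percentile of -log10 q or higher in each R172H library and at the 85.2 percentile or higher in each R245W library.

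Caln1, the calcium sensor gene on the left of Galnt17 (130369404 to 130846325), had 9, 10 and 10 peaks in the R172H libraries, 10, 11 and 9 in the R245W libraries and 1, 0 and 1 in the null libraries. The mutant lines overlapped and lay above the null libraries. Neither end of Caln1 had a peak in any of the 9 libraries, so its peaks lay inside the span or in the added flanks. The null peaks of replicates 1 and 3 were different ones. The peak of null replicate 1 lay in a region at 130622908 to 130623903, called in all 6 mutant libraries, where it ranked at the 24.1 percentile within its list. That of null replicate 3 lay at 130405186 to 130405481 and was otherwise called in 1 R245W library.

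Auts2, the Polycomb partner on the right (131437333 to 132543220), kept the most null peaks. It had 20, 20 and 20 peaks in the R172H libraries, 13, 13 and 14 in the R245W libraries and 3, 3 and 3 in the null libraries. The null peaks were the same 3 regions in each null library, and these were also called in all 6 mutant libraries. The 3 lie within the part of the gene nearest to Galnt17. From 131814981 on, no null peak occurred for 2083 kb, past the other end of Auts2, but that interval held 2 regions called in all 6 mutant libraries. At the higher coordinate of the Auts2 span, 132543220, a peak was called in 3 R172H libraries, at percentiles of 32.3 to 37.8, in 1 R245W library and in no null library.

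Opcml, the IgLON adhesion gene on chromosome 9 (27790716 to 28925410), had 20, 26 and 22 peaks in the R172H libraries, 10, 11 and 10 in the R245W libraries and 2, 1 and 1 in the null libraries. The 3 lines did not overlap. Its start was open in every mutant library, at percentiles of 85.5 to 87.8 in the R172H line and of 16.6 to 31.5 in the R245W line. The null peak common to all 3 null libraries, at 28578665 to 28579356, was also called in 3 R245W libraries and 1 R172H library.

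Chn2, the Rac regulator on chromosome 6 (54039932 to 54301812), had 28, 27 and 27 peaks in the R172H libraries, 15, 14 and 15 in the R245W libraries and 1, 0 and 1 in the null libraries. It was the shortest and most densely covered of the 5 loci, with 19.4 ± 0.633 kb under peaks in the R172H line, 10.7 ± 0.320 kb in the R245W line and 0.226 ± 0.198 kb in the null line (SD, n = 3), in a window of 362 kb. Its printed start, under a peak at 54039237 to 54040626, ranked at percentiles of 90.9 to 93.4 in the R172H libraries and of 50.9 to 58.8 in the R245W libraries. The null peaks of Chn2 lay in 1 region at 54228531 to 54229418, called in 2 null libraries and in all 6 mutant libraries.

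**Figure D1:**
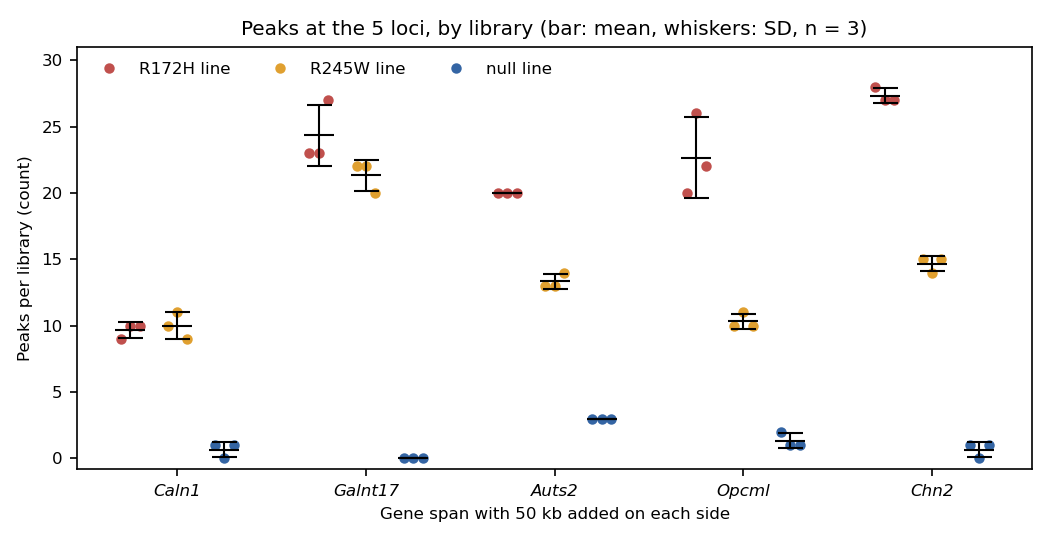
Peaks per library (vertical axis, count) in the span of each gene with 50 kb added on each side; dots are libraries of the R172H, R245W and null lines, bars the mean and whiskers the SD (n = 3). The null libraries lay between 0 and 3 at every locus, below all mutant libraries.

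At all 5 loci every null library had fewer peaks than every mutant library, which was the case for 2981 (15.5%) of the 19290 protein-coding genes with any peak. Since null calls chose the genes, nothing is read from that count. As a share of the mean of the 6 mutant libraries, the null mean was 0% at Galnt17, 3.17% at Chn2, 6.78% at Caln1, 8.08% at Opcml and 18% at Auts2. Among the 6672 genes with a mutant mean as high as that of Caln1 or higher, the median was 92.0%. In that set, 25 genes had a lower share than Auts2 and 7 a lower share than Chn2.

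The rule did not use the difference between the mutant lines, and at 4 of the 5 loci every R172H library had more peaks than every R245W library. That order held for 3026 (15.7%) of the genes with any peak, and the reverse order for 5247 (27.2%). The R172H line exceeded the R245W line by 12.7 peaks at Chn2, 12.3 at Opcml, 6.67 at Auts2 and 3.0 at Galnt17 (exact permutation test, two-sided p = 0.1 for each, adjusted p = 0.125 over 5 genes). With 3 libraries against 3 the exact test cannot go below 0.1, so none of these could pass 0.05. At Caln1 the difference was -0.333 peaks, within the spread between libraries (exact permutation test, p = 1, adjusted p = 1). Counted over the Caln1 span without added flanks it was -1.67, with more peaks in the R245W line (exact permutation test, unadjusted p = 0.1, the smallest possible). The Galnt17 difference was 7.33 with lists cut to equal length and 1.67 without R172H replicate 3.

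Merging all lists where peaks overlapped gave 124230 regions, of which 136 lay in the 5 loci, 71 of them on chromosome 5. Regions called in all 6 mutant libraries and in no null library numbered 34 of these 136 (25%), against 3781 (3.04%) of all regions. By gene there were 10 of 37 at Galnt17, 9 of 35 at Chn2, 7 of 30 at Opcml, 6 of 25 at Auts2 and 3 of 17 at Caln1, with 1 region shared by the Caln1 and Galnt17 loci. Put the other way, 39 regions of the loci were called in all 6 mutant libraries, and 34 of these (87.2%) had no null call, against 8.83% over the whole series. No null call was present in 128 of the 136 (94.1%), against 50656 (40.8%) of all regions. Null calls chose the loci, so all these shares are a description and nothing is read from their height.

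The mutant lines also differed in which regions of the loci they opened. In the 5 loci 43 regions belonged to the R172H line by itself, with a call in each of its libraries and none elsewhere, and 12 belonged in the same way to the R245W line. Over all regions these kinds made up 9.83% and 5.79%. Chn2 had 14 of the first kind and 3 of the second, and Opcml 10 and 1. Caln1 had 4 of each, and Galnt17 had 10 and 6. Both kinds require that no null library had a call, which the choice of the loci favours. Their counts here are therefore a description. Without regard to null calls, 11.5% of all regions were called in all R172H and no R245W libraries, and 13.8% the reverse. None of the loci held a region seen in every null library and missing from every mutant library, a kind that numbered 3402 of all 124230 regions. Since the loci were chosen for having few null peaks, nothing is read from that absence.

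**Figure D2:**
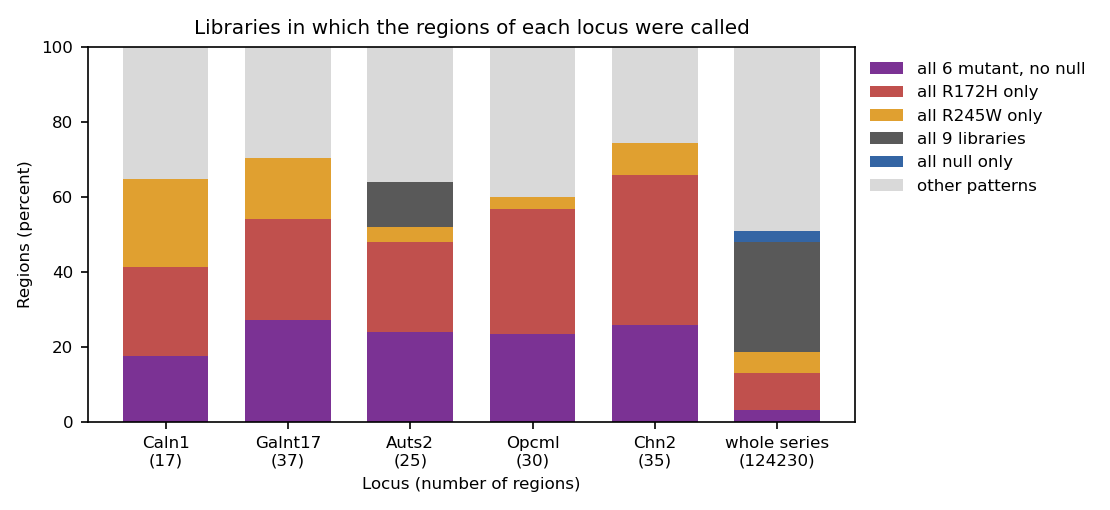
Regions of each locus (bars, percent of the number under each name) by the libraries in which they were called, beside the whole series. Regions of all 6 mutant libraries without a null call made up 17.6% at Caln1 to 27.0% at Galnt17, against 3.04% of all regions. Null calls chose the loci, so this difference is a description.

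Some of the regions without a null call were strong in the mutant lines. Where a region was called in all 6 mutant libraries, its lowest percentile of -log10 q over those libraries was taken. The 34 regions of the loci had a median lowest percentile of 37.0, against 24.2 for all 3781 regions of that kind. At or above the 50 percentile there were 17 regions of all 6 mutant libraries in the loci, of which 13 had no null call, or 76.5%. In the whole series 531 of 23281 such regions had no null call, or 2.28%. Null calls chose the loci, so the 76.5% is a description.

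An empty stretch was taken as the interval between neighbouring null peaks, with the 3 null lists pooled. The one on chromosome 5 ran for 914 kb, from 130623612 to 131537203. It held 46.7% of the Caln1 span, the whole of Galnt17 and 9.03% of the Auts2 span, and no other protein-coding gene. Inside it the R172H libraries had 32, 32 and 35 peaks and the R245W libraries 29, 31 and 28, against 0, 0 and 0 in the null libraries. In the mutant lines the longest interval without a peak inside it was 196 kb for R172H and 178 kb for R245W.

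The chromosome 5 stretch held 14 regions called in all 6 mutant libraries. Its 3 strongest by lowest percentile were the Galnt17 start (83.9), a region within Galnt17 at 131142282 to 131143347 (81.6) and one within Auts2 at 131515564 to 131516427 (74.4). The gene table gives spans without exons, so exon or intron is not stated. Of all null stretches 3 held 14 regions or more. The other two were on chromosome X, so that of chromosome 5 was first among the autosomes. By length it ranked 310 among the null stretches.

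The edges of this stretch lay within genes. The left edge was inside Caln1, 254 kb from the gene's lower coordinate, at the weak peak of null replicate 1 described above. Without that library the stretch would begin further left, and in null replicates 1, 2 and 3 by themselves it measured 914, 1269 and 1132 kb. Beyond the left edge, 4 of the next 5 regions of all 6 mutant libraries were called in all null libraries. These 5 reached 402 kb to the left, and the nearest of the 4 ended at 130267777. Between it and the edge lay the peak of null replicate 3 described above. The right edge was inside Auts2, 99.9 kb from its lower coordinate, at a region called in all 9 libraries (131537004 to 131539148). Of the next 5 regions of all 6 mutant libraries to the right, which reached 347 kb, 2 had a peak in every null library and 3 had none. In the 500 kb to the left, the R172H line had 21.7 ± 2.08 peaks, the R245W line 17.7 ± 2.31 and the null line 14.7 ± 3.06 (SD, n = 3). In the 500 kb to the right they had 14 ± 1.00, 9.33 ± 0.577 and 3.0 ± 0.

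The Opcml stretch ran for 847 kb on chromosome 9, from 27414368 to 28261333, and held the first 471 kb of the Opcml span with no other protein-coding gene. The R172H libraries had 16, 22 and 17 peaks in it and the R245W libraries 9, 11 and 11, against none in the null libraries. It held 7 regions of all 6 mutant libraries, and 12 null stretches held 7 or more. The strongest, at 27964732 to 27966098 within Opcml, ranked at the 64.1 percentile or higher in each mutant library. Another at 27800623 to 27801684, near the Opcml start, ranked at 78.1 to 82.0 in the R172H libraries and at 46.0 to 48.5 in the R245W libraries.

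The left edge of the Opcml stretch, at 27413907 to 27414592, was called in all 9 libraries, at percentiles of 6.37 to 10.8 in the null libraries. The right edge, at 28261161 to 28261885, was 1 peak of null replicate 1, and in the other null libraries the stretch measured 1164 kb each. Past that edge the mutant lines parted. In the next 500 kb the R172H line had 10.3 ± 0.577 peaks, the R245W line 1.33 ± 0.577 and the null line 1.33 ± 0.577 (SD, n = 3). That window lies inside Opcml, and in it the R245W and null lines had the same mean. In the 500 kb left of the stretch the R172H line had 18 ± 1.00 peaks, the R245W line 15 ± 2.65 and the null line 11 ± 1.73 (SD, n = 3).

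The Chn2 stretch was the shortest, at 270 kb on chromosome 6 (53958860 to 54228854). It held 72.1% of the Chn2 span and 18.8% of Cpvl, a gene for a serine carboxypeptidase. The R172H libraries had 19, 18 and 18 peaks in it and the R245W libraries 7, 7 and 6, against none in the null libraries. It held 6 regions of all 6 mutant libraries. The strongest were at 54115862 to 54117036 (lowest percentile 71.0), at 54203011 to 54204253 (61.5) and at the printed start (50.9). The last 2 were much higher in the R172H libraries, with 87.2 to 91.1 and 90.9 to 93.4.

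Its left edge, at 53957836 to 53958859, was called in all 9 libraries at percentiles of 37.8 to 47.9 in the R172H libraries, 51.3 to 62.1 in the R245W libraries and 41.5 to 48.2 in the null libraries. Its right edge was the region within Chn2 that 2 null libraries called, and in null replicate 2 the stretch went on to 54364193, for 405 kb. A further 135 kb without null peaks followed that edge in the pooled lists, with 3 regions of all 6 mutant libraries. In the 500 kb to the right of the edge the R172H line had 36 ± 0, the R245W line 25.7 ± 2.31 and the null line 13 ± 1.00 peaks (SD, n = 3).

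**Figure D3:**
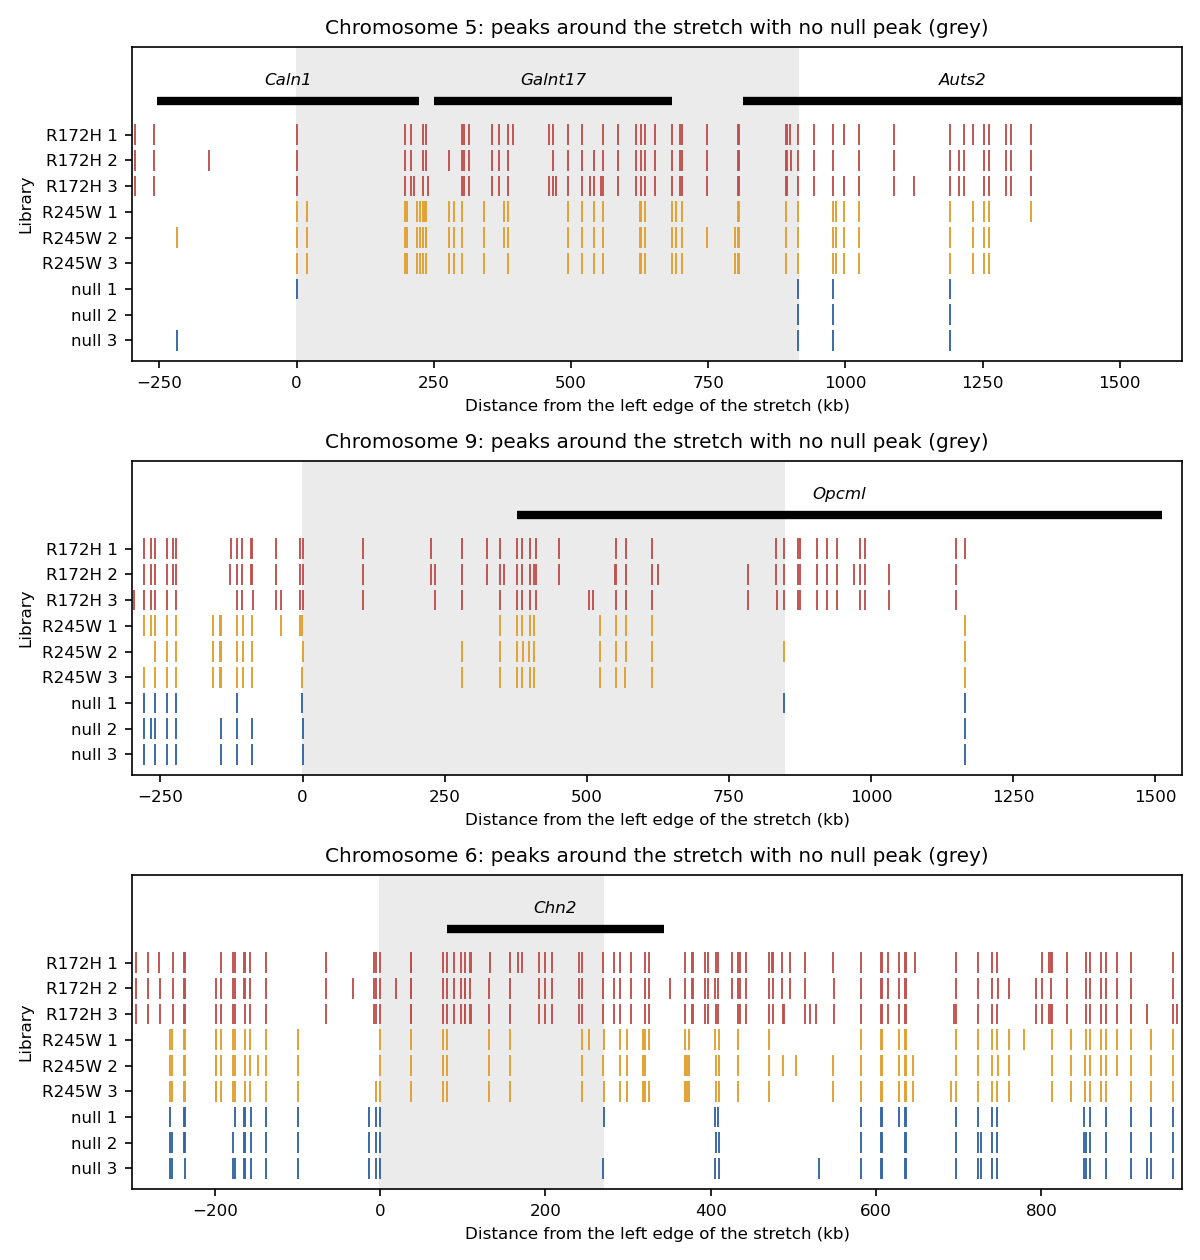
Peaks of each library (rows, 1 tick per peak) by distance from the left edge of each stretch without null peaks (horizontal axis, kb; grey), with the member genes as black bars. R172H and R245W ticks run through the grey stretches of 914, 847 and 270 kb, and each edge is set by a peak of at least 1 null library; in single null libraries the stretches reach up to 1269, 1164 and 405 kb.

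Stretches of this kind were not limited to the null line. With 3 or more regions called in all 6 libraries of the other lines, there were 190 stretches without R172H peaks, 7 without R245W peaks and 145 without null peaks. With 10 or more there were 1, 0 and 7. The most regions in a stretch were 14, 8 and 17.

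**Figure D4:**
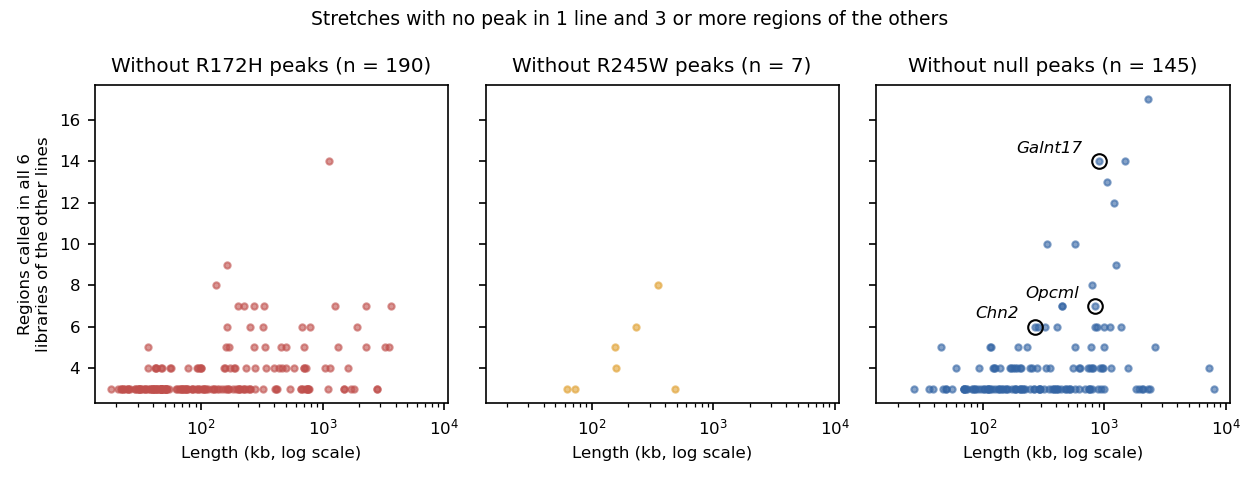
Length (horizontal axis, kb, log scale) of each stretch without peaks of 1 line, against the number of regions in it that were called in all 6 libraries of the other lines (vertical axis). The stretches of Galnt17 with its neighbours, Opcml and Chn2 are circled, at 14, 7 and 6 regions.

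The null peaks that remained at Auts2 had lower pile-ups than the same regions in the mutant lines. Within the null lists they ranked at percentiles of 32.1 to 37.1 at the first region, 58.9 to 61.3 at the second and 35.3 to 43.0 at the third. At each summit the reads piled up were recovered from the deposited fold and p, and given as log2 of the library's median over the 36473 regions called in all 9 libraries. At the right edge of the stretch the 3 shared Auts2 regions began with a log2 pile-up of 1.03 ± 0.07 in the R172H line, 0.44 ± 0.07 in the R245W line and -1.75 ± 0.09 in the null line (SD, n = 3). At the second region (131599947 to 131600992) the values were 0.18 ± 0.10, 0.99 ± 0.07 and -0.77 ± 0.07. At the third (131814004 to 131815254) they were 1.07 ± 0.03, 0.53 ± 0.07 and -1.62 ± 0.13. Null libraries were lowest at all 3 regions without overlap, while the order of the mutant lines changed between regions. The differences of R172H minus null were 2.79, 0.95 and 2.69, and those of R245W minus null 2.20, 1.76 and 2.15, on the log2 scale. In a bulk library a weak signal in every cell and a strong one in few cells cannot be told apart.

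**Figure D5:**
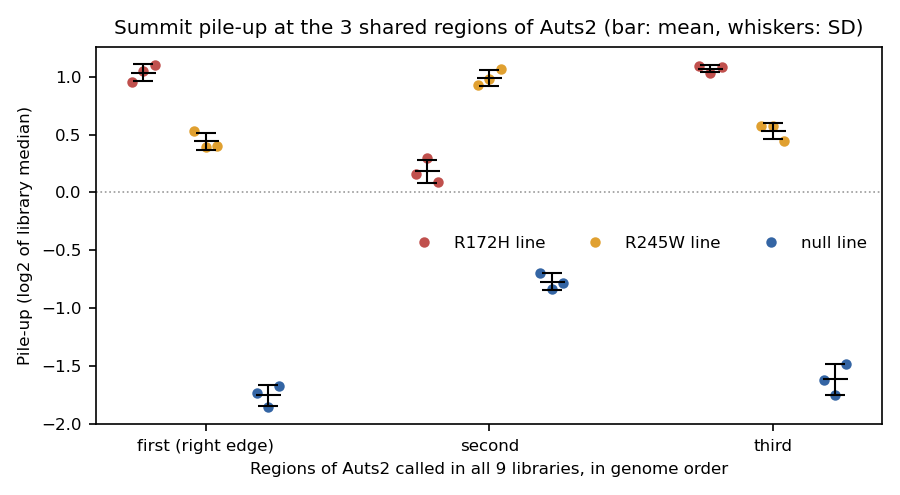
Summit pile-up (vertical axis, log2 of the library's median over regions of all 9 libraries) at the 3 Auts2 regions called in every library; dots are libraries, bars means and whiskers SD (n = 3). The null line lay at -1.75, -0.77 and -1.62, below both mutant lines at each region.

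Outside the stretches the null signal differed from place to place. In the 1 Mb left of the chromosome 5 stretch, the 27 regions of all 9 libraries had a median log2 pile-up of 1.36 ± 0.03 in the R172H line, 1.08 ± 0.02 in the R245W line and 1.08 ± 0.03 in the null line. In the 1 Mb left of the Opcml stretch, 8 such regions stood at 0.96 ± 0.03, 0.19 ± 0.04 and -0.50 ± 0.06. Left of the Chn2 stretch 11 stood at 0.33 ± 0.05, -0.29 ± 0.06 and -0.90 ± 0.16, and right of it 27 stood at 0.65 ± 0.04, -0.10 ± 0.02 and -0.14 ± 0.02 (SD, n = 3). Over the whole of chromosome 5 the medians were -0.01, 0.04 and 0.08, over chromosome 9 they were 0.13, -0.11 and -0.02, and over chromosome 6 they were 0.01, 0.17 and -0.22, for R172H, R245W and null. The part of the level of a whole chromosome in the missing peaks was not tested.

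Relatives of the 5 genes, pooled over the lists, had the same median difference as all genes. The lists were the Auts2 paralogues, the EF-hand CaBP genes, the other GalNAc transferases, the other IgLON genes, Chn1 and 9 genes of the Polycomb complexes that AUTS2 joins, with 39 of 40 genes found. Every null library had fewer peaks than every mutant library at 5 of the 39, and more at 3, against 15.5% and 3.73% of all genes. The median of null minus mutant peaks was -0.667 over the 39 genes and -0.667 over all genes with a peak. By list it was -2.58 for the Auts2 paralogues, -2.17 for the IgLON genes and -0.833 for the transferases. For the Polycomb genes it was -0.5, for the CaBP genes -0.333 and for Chn1 -0.167. The 9 Polycomb genes included 0 with fewer null peaks in this sense and 1, Rnf2, a ubiquitin ligase, with more, at 4.0 ± 0, 3.33 ± 0.577 and 5.33 ± 0.577 peaks in the R172H, R245W and null lines. Fbrsl1, a paralogue of Auts2, had 13 ± 1.00, 18.3 ± 0.577 and 10.7 ± 0.577 peaks. Fbrs, the other paralogue listed, had 5.67 ± 0.577, 6.67 ± 0.577 and 6.0 ± 0, with null libraries neither below nor above all mutant libraries. Chn1, the alpha-chimaerin gene, had 11.7 ± 0.577, 12 ± 0 and 11.7 ± 1.53.

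The GalNAc transferases held 4 of the 5 relatives with fewer null peaks. They were also 18 of the 39 relatives found, and 15.5% of all genes with any peak had fewer null peaks in this sense. Nothing about the family is read from the 4. Galnt5 had 8, 7 and 6 peaks in the R172H libraries, 5, 5 and 4 in the R245W libraries and 0, 0 and 0 in the null libraries. Galnt14 had 4.0 ± 0, 4.0 ± 0 and 1.0 ± 0, Galnt16 8.67 ± 0.577, 6.0 ± 0 and 3.0 ± 1.00, and Galntl6 5.33 ± 0.577, 9.0 ± 0 and 2.0 ± 0 (SD, n = 3). The other 14 of the 18 transferases found had null libraries neither below nor above all mutant libraries. Among the EF-hand relatives of Caln1, Cabp5 had 1, 1 and 1 peaks in the R172H libraries and none in the R245W or null libraries, and Cabp2 had 10.7 ± 1.15, 12.7 ± 0.577 and 14.3 ± 0.577 peaks in the R172H, R245W and null lines. Galnt16 and Galnt18 are equally near to Galnt17 in name. Galnt18 had 8.67 ± 1.53 peaks in the R172H line, 3.0 ± 1.00 in the R245W line and 5.67 ± 0.577 in the null line.

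Ntm, the IgLON gene beside Opcml on chromosome 9 (28994749 to 29963269), went the other way. It had 1, 1 and 2 peaks in the R172H libraries, 2, 2 and 1 in the R245W libraries and 5, 4 and 4 in the null libraries. Just outside the Opcml locus, 14.2 kb past its border, a region at 28989589 to 28990379 was a peak in all 3 null libraries, at percentiles of 46.1 to 53.7, and in none of the mutant libraries. A weaker one of the same kind lay 24.4 kb past the border. Outside the Chn2 locus the nearest such region was 44.1 kb away. The IgLON gene Negr1 had 11 ± 0 peaks in the R172H line, 2.67 ± 0.577 in the R245W line and 1.67 ± 0.577 in the null line, so its mutant lines differed from each other.

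A gene was called emptied when every mutant library had 3 or more peaks in its locus and no null library had any. This held for 45 of 21887 genes (0.206%), of which Galnt17 was the 1 member. With the lines exchanged, 22 genes (0.101%) were emptied in R172H and 3 (0.0137%) in R245W. The 45 genes lay in 33 stretches. The 5 most like Galnt17 over the 9 libraries, by the number of regions called in all 6 mutant libraries, were Epb41l3 on chromosome 17 with 11, Srrm4 on chromosome 5 with 8, Hspb8 beside it with 7, Foxp2 on chromosome 6 with 5 and Hs6st2 on chromosome X with 5. Galnt17 had 10. Srrm4, a regulator of neuronal splicing, and Hspb8, a small heat-shock protein gene, share 1 stretch of 796 kb. Epb41l3, a gene for a membrane skeleton protein, had 15, 14 and 14 peaks in the R172H libraries, 19, 17 and 18 in the R245W libraries and none in the null libraries, in a stretch of 1204 kb.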

How the data were processed

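Peaks were called per library, and replicates were not pooled. Bowtie 1.1.2 and MACS2 2.1.0 are named, per the submitters' processing notes, with bcl2fastq 2.17, deepTools and Trimmomatic 0.33, and GRCm38 as the build. The sources used here give no settings and do not state a Tn5 shift. The deposited lists hold for each peak a score, the fold ratio over local background, and -log10 p and -log10 q at the summit, as the authors' peak caller gave them. These were used to rank peaks within a list, and fold and p to recover the summit pile-up, which came out within 0.01 of a whole number for 100% of peaks. Pile-up recovery and the search for empty stretches were tested on simulated data.

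Lists were merged at 1 bp of overlap. Gene spans and promoters are RefSeq GRCm38.p6. Peak counts of R172H and R245W were compared by exact permutation with Benjamini-Hochberg adjustment over 5 genes. The members and lists were chosen with earlier results of these data known. Named genes were the members, genes spanned by their stretches, listed relatives with no null peak or nearest in name, and the 5 most alike. Relatives whose null libraries did not overlap the mutant ones, and also Negr1 and Fbrs, were named after their values were seen. Tables were computed in Python 3.11.15 (pandas 2.3.3, numpy 2.4.6), tests in scipy 1.17.1, and plots in matplotlib 3.10.9.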

Additional observations from a re-analysis of the deposited data

How the results depend on the processing

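Each result was recomputed with strong peaks only (-log10 q of at least 5), lists of equal length, summits, windows of 0 and 100 kb, other region and call rules, paired libraries, and every library omitted in turn. Of 130 recomputed values 122 kept their direction or stayed near the main value. The R172H minus R245W difference at Caln1 changed sign with a -log10 q of 5 or more (0.333 peaks), with lists of equal length (1) and without R245W replicate 2, with -0.833 to 0.167 over the libraries left out; it was -1.67 without added flanks (exact permutation p = 0.1). The chromosome 5 stretch ran from 914 to 1132 kb and the Opcml stretch from 847 to 1164 kb when a null library was left out, both longest without null replicate 1; the Chn2 stretch kept 270 kb. Genes emptied in null numbered 45 to 57 with a library left out, 35 with lists of equal length and 22 without added flanks. They numbered 222 with at least 1 peak in every mutant library and 12 with at least 5. With lists of equal length, the regions of all mutant libraries in the stretch numbered 12 on chromosome 5, 7 at Opcml and 4 at Chn2. The main values were 14, 7 and 6. With same-numbered libraries paired (replicate block), the exact sign-flip permutation p was 0.25 at 4 genes, the smallest it allows, and 1 at Caln1, with the same differences (3.0 at Galnt17, which was 5.33 without added flanks). No label says what the numbers mark. Deviations of calls correlated at -0.00130 to 0.00367 between same-numbered libraries and at -0.00329 to 0.00132 between others. Of 9 libraries, 7 correlated best with their own number. All these correlations were very small and the ranges overlapped, so no pairing is read from them. Depth is unknown, so a missing peak says only that none passed the q threshold.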

Other observations

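Of the 45 genes emptied in the null line, 8 lay on chromosome X and 8 on chromosome 19. Neighbouring genes can share a stretch, and the 45 lay in 33 stretches. The share of all protein-coding genes on these chromosomes was not counted, so no concentration is read from these counts. The transcription factor gene Sox11 on chromosome 12, singled out after its values were seen, was among the 45, with 3, 3 and 3 peaks in the R172H libraries, 5, 5 and 6 in the R245W libraries and none in the null libraries.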
